A study of Mus musculus with 6 samples.

Results

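Chromatin accessibility was examined at 9 genes of the Notch pathway in small-intestinal organoids from aged and young mice: the receptors Notch1, Notch2 and Notch3, the ligands Dll1, Dll4, Jag1 and Jag2, the transcription factor Rbpj and its target Hes1. In these libraries no peak named for any of the 9 genes was called different between the ages. The members are the ATAC-seq peaks whose gene name in the deposited annotation is 1 of the 9 and that lie within 50 kb of the annotated transcription start site (TSS). This rule, which uses no measured value, gave 59 of 156733 consensus peaks. The annotation places 31 of them between genes, 16 in introns, 7 at promoters, 3 in exons and 2 at transcription termination sites (TTS).

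ATAC-seq uses the Tn5 transposase to insert adapters into open chromatin, so the count in a peak measures how often that region was accessible. Organoids are epithelial cultures grown from crypts, which keep stem cells and their differentiated progeny. The aged group had 3 libraries from C57BL/6JRj mice of 20 to 22 months, and the young group 3 libraries from C57BL/6JRj mice of 2 to 3 months. All cultures were kept for 3 to 5 weeks without treatment, and in both groups replicate 1 was at passage 4, replicate 2 at passage 3 and replicate 3 at passage 2. No label states whether replicates are different animals, so the p-values describe the spread among these libraries, which may be technical.

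Notch signalling passes between touching cells. A Delta-like or Jagged ligand on one cell binds a Notch receptor on its neighbour, the receptor is cleaved, and its intracellular domain moves to the nucleus, where it joins Rbpj and turns on targets such as Hes1. In the intestinal crypt this keeps stem and progenitor cells dividing and steers daughters to the absorptive fate, because Hes1 represses Atoh1, the factor that starts secretory differentiation. Notch1 and Notch2 are the receptors of crypt epithelium and Dll1 and Dll4 its main ligands, while Notch3 is best known from mural cells of blood vessels.

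The aged libraries held 22363682, 21687816 and 26093521 counts in peaks, and the young libraries 7278161, 25901670 and 19208483. A single count was therefore worth 0.0388 to 0.0462 CPM (counts scaled to a common library size) in the aged libraries and 0.0378 to 0.14 CPM in the young, with the coarsest steps in young replicate 1. Promoter peaks (within 1 kb of the TSS) of epithelial markers were open in every library: 10 of 12 listed genes had one, with 380 to 393 CPM summed in the aged libraries and 350 to 402 CPM in the young. Of 10 immune markers 3 had a promoter peak, at 9.60 to 10.8 CPM in the aged libraries and 10.2 to 11.5 CPM in the young, and most of this was Cd68. Ptprc and Cd3e had none. Of 10 stromal markers 6 had one (31.6 to 38.6 CPM in aged and 28.7 to 35.1 CPM in young libraries), led by Pdgfra, and of 10 endothelial and neural markers 4 (9.40 to 10.7 CPM in aged and 9.50 to 12.9 CPM in young libraries). None of these marker peaks was called different. The smallest p among them was at Kdr, an endothelial receptor, with 1.86, 2.22 and 1.94 CPM in the aged libraries and 2.81, 3.71 and 2.69 CPM in the young, which did not overlap (ratio -0.65, unadjusted p = 0.00461, adjusted p = 0.187 in edgeR). The part of such cells in the values below was not tested. In a bulk sample, fewer cells with an open region and less opening per cell cannot be told apart.

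The sequences just upstream of 4 members are shown. At Rbpj, Notch1 and Dll4 an open peak covers the RefSeq start but is named for another gene, while at Notch3 no peak covers it. For Rbpj this means the 2 starts whose upstream sequences were at hand. The RefSeq span of Rbpj begins further upstream, at chr5:53555779. The Dll1 start peak is also named for another gene, but its windows held none of the motifs sought below and are not shown. Each sequence shown is the 250 bases before the start in RefSeq (GRCm38.p6), 5′ to 3′ on the gene's strand. Capitals mark the Rbpj core TGGGAA (on either strand) and the N box CACNAG (on either strand), to which Hes proteins bind.
Rbpj, first of 2 RefSeq starts, chr5:53590096-53590345, plus strand: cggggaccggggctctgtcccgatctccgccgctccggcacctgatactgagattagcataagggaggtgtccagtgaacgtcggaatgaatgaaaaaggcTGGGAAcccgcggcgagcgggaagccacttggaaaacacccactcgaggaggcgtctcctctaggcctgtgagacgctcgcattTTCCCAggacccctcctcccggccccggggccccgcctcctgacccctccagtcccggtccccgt
Notch1, chr2:26503823-26504072, minus strand: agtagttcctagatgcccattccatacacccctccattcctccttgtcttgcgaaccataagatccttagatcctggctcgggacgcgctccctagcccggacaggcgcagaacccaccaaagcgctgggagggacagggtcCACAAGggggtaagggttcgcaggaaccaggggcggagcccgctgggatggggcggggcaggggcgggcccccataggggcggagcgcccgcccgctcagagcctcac
Dll4, chr2:119325534-119325783, plus strand: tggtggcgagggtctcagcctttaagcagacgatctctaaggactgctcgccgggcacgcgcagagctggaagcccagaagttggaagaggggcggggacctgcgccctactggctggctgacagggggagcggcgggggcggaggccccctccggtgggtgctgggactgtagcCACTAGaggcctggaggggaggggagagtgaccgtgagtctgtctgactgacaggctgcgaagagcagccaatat
Notch3, chr17:32166891-32167140, minus strand: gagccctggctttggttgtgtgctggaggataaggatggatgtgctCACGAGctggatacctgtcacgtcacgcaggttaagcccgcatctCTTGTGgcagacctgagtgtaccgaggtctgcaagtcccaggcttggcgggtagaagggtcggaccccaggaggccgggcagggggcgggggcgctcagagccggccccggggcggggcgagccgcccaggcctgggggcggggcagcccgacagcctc
The Rbpj window held the Rbpj core at 149 to 144 bases before the start on the gene's strand and at 65 to 60 bases on the other. Among 32851 RefSeq windows of 250 bases before a start, 21.6% held this core, 36.7% an N box and 6.02% the E box CACGTG. Of the 10 windows of the 8 members found in the RefSeq table, 2 held the core, both of Rbpj and overlapping each other, 4 an N box and none the E box. The N box lay at 108 to 103 bases before the start in Notch1, at 75 to 70 in Dll4, and at 204 to 199 and 159 to 154 in Notch3. Notch2, whose window is not shown, held it at 247 to 242 bases before the start on the other strand. A match is a stretch of letters and not a measured binding site. The 10 windows were rich in G and C, at 56 to 87.2% against a median of 52.4% over all windows.

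Of the 59 member peaks, 51 held enough counts to be tested and 8 did not. In edgeR's quasi-likelihood F test, adjusted by Benjamini-Hochberg over 132055 peaks, 0 of the 51 were called at an adjusted p under 0.05, against 1.13% of all tested peaks (0.619% higher and 0.51% lower in aged). None had an unadjusted p under 0.05 either, against 9.71% of all peaks, and the smallest adjusted p was 0.541. DESeq2's Wald test also gave 0 calls and 0 unadjusted p under 0.05, with no adjusted p for 7 of the 51. With the replicate number as a block, 2.67% of all peaks were called and again no member. The log2 ratio of aged over young was positive in 31 member peaks and negative in 20, against 48% positive over all tested peaks. The median was 0.04 against -0.01 over all tested peaks. The 3 aged libraries lay above all 3 young ones in 5 tested peaks and below them in 2, and the groups overlapped in 44. Over all tested peaks 14.7% did not overlap, 7.66% with aged above and 7.09% with aged below. In all 3 same-numbered pairs the aged value was higher in 11 of the 51 and lower in 5, on ratios rounded to 2 decimals. Over all tested peaks these shares were 17% and 16.7%.

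The depth was enough to bound these differences at the open peaks. For the 23 tested member peaks that averaged 10 CPM or more, log2 ratios ran from -0.23 to 0.21 with a median SE of 0.10, and every 95% interval lay within -0.46 to 0.49. For the 9 that averaged under 1 CPM, ratios ran from -0.63 to 0.44 with a median SE of 0.40, and intervals reached from -1.45 to 1.43. Differences within those wide intervals were not detectable at this depth.

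**Figure D1:**
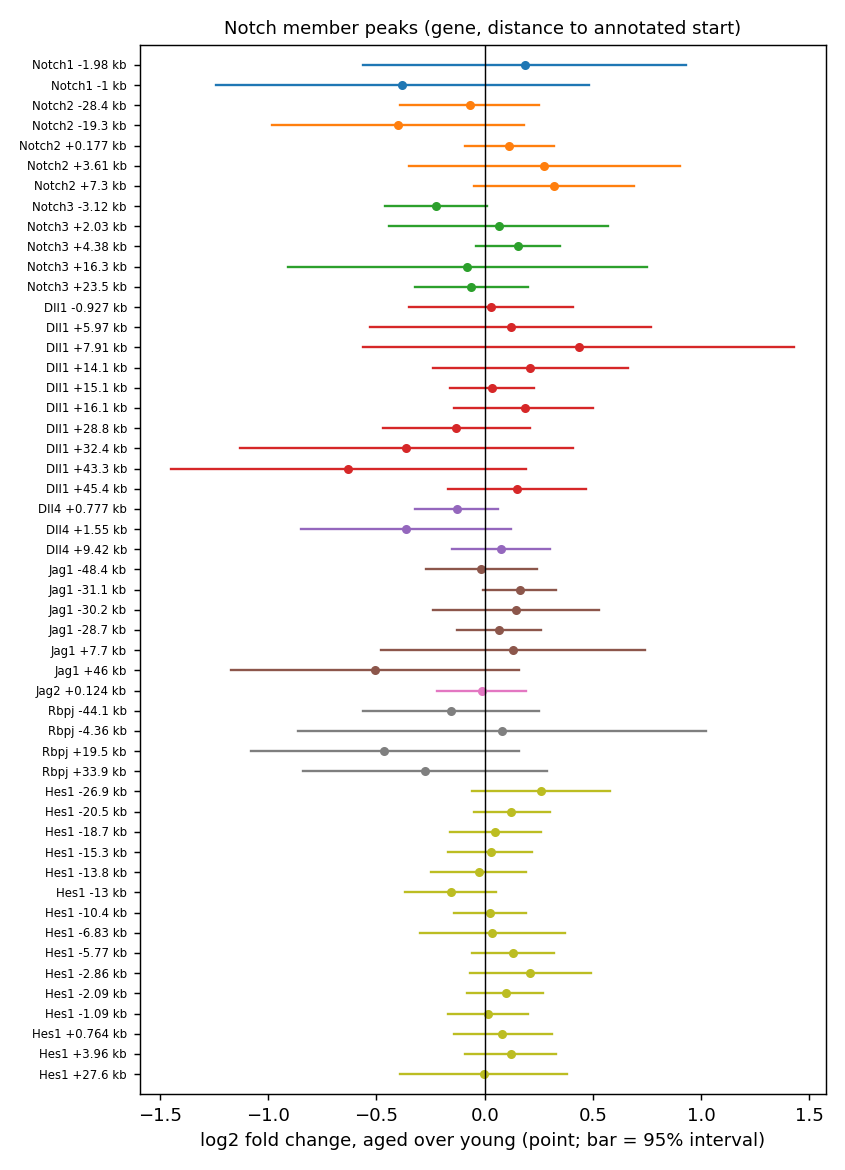
Log2 ratio of aged over young (x axis) for the 51 tested member peaks, grouped by gene (y axis), with 95% intervals as lines. The points lie between -0.63 and 0.44, the widest lines belong to peaks of few counts, and no peak was called.

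Notch1, a receptor that crypt stem cells carry, had only 2 member peaks, both sparse. The peak 1.98 kb upstream of the annotated TSS (chr2:26467937-26468340) had 0.818, 0.601 and 0.893 CPM in the aged libraries and 0.421, 0.643 and 0.844 CPM in the young. The groups overlapped, and the log2 ratio was 0.19 ± 0.37 (SE, n = 3 each, adjusted p = 0.927 in edgeR). Neither peak lay within 1 kb of the annotated TSS. The opening at the RefSeq start of the gene is described further on.

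Notch2, the receptor that acts beside Notch1 in the crypt, had 7 member peaks, of which 5 were tested, 3 with a positive and 2 with a negative ratio. Its peak over exon 1 (chr3:98013156-98014253) had 24.2, 25.1 and 23.7 CPM in the aged libraries and 19.7, 24.2 and 22.7 CPM in the young. Values overlapped between the ages, and the ratio was 0.11 ± 0.10 (SE, adjusted p = 0.796 in edgeR). The intron peak 7.30 kb into the gene (chr3:98020493-98021152) had 4.00, 4.07 and 4.74 CPM in the aged libraries and 3.23, 3.56 and 3.38 CPM in the young. Here every aged library lay above every young one, but the ratio of 0.32 ± 0.18 did not pass (SE, unadjusted p = 0.0844, adjusted p = 0.606 in edgeR, higher in 3 of 3 same-numbered pairs).

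Notch3 had 5 tested peaks, 2 with a positive and 3 with a negative ratio, and the smallest unadjusted p of all members. This was at a peak 3.12 kb upstream of the TSS (chr17:32169655-32170342), with 16.0, 13.9 and 15.02 CPM in the aged libraries and 18.5, 15.7 and 18.7 CPM in the young. The aged value was lower in 3 of 3 same-numbered pairs, yet the groups overlapped. Its ratio was -0.23 ± 0.11 with an interval of -0.46 to 0.01 (SE, unadjusted p = 0.058, adjusted p = 0.541 in edgeR). The deepest Notch3 peak, 4.38 kb into the gene in an intron (chr17:32162002-32162995), went numerically the other way, with 27.6, 28.0 and 29.2 CPM in the aged libraries and 24.98, 28.0 and 22.9 CPM in the young. Its ratio of 0.15 ± 0.10 did not pass either (SE, adjusted p = 0.67 in edgeR).

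Dll1, a Delta-like ligand shown by secretory precursors, had 11 member peaks, of which 10 were tested, 7 with a positive and 3 with a negative ratio. The deepest lay 15.1 kb from the TSS between genes (chr17:15356498-15356996) and had 28.7, 27.7 and 28.0 CPM in the aged libraries and 28.9, 25.5 and 28.4 CPM in the young. The ratio was 0.04 ± 0.09 (SE, adjusted p = 0.951 in edgeR). The peak 0.927 kb upstream of the annotated TSS (chr17:15372597-15372920) was low, at 4.96, 3.79 and 3.57 CPM in the aged libraries and 4.21, 4.50 and 3.32 CPM in the young. In both peaks the groups overlapped, and the second had a ratio of 0.03 ± 0.19 (SE, adjusted p = 0.981 in edgeR). The lowest and highest ratios of all tested member peaks, -0.63 and 0.44, were both at Dll1 peaks under 1 CPM. Dll1 also had an untested peak 6.54 kb from the TSS. It held 10, 7 and 15 counts in the aged libraries and 2, 1 and 4 counts in the young. Scaled to library size this was 0.455, 0.323 and 0.582 CPM in aged and 0.281, 0.0378 and 0.211 CPM in young libraries. An untested Jag1 peak 12.5 kb upstream went the other way. That peak had 0.0909, 0.0462 and 0.233 CPM in aged and 0.702, 0.265 and 0.264 CPM in young libraries.

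Dll4, the other Delta-like ligand of the crypt, had 3 tested peaks. The deepest lay in an intron 0.777 kb from the annotated TSS (chr2:119329125-119329505), with 28.5, 34.6 and 29.5 CPM in the aged libraries and 35.7, 34.5 and 31.4 CPM in the young. Aged and young libraries overlapped, with a ratio of -0.13 ± 0.09 (SE, adjusted p = 0.735 in edgeR). In the neighbouring intron peak at 1.55 kb the aged libraries lay below the young, at 1.96, 1.94 and 1.32 CPM in the aged and 1.97, 2.16 and 2.43 CPM in the young, with an adjusted p of 0.684 in edgeR.

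Jag1, a Jagged ligand, had 7 member peaks, 6 of them tested. Its deepest peak (chr2:137116368-137117718) is listed 31.1 kb upstream of the annotated TSS but covers the RefSeq start. This peak had 47.3, 47.5 and 44.2 CPM in the aged libraries and 41.6, 43.4 and 39.0 CPM in the young. All 3 aged libraries lay above all 3 young ones, and the ratio was 0.16 ± 0.08 with an interval of -0.01 to 0.33. It did not pass the test (SE, unadjusted p = 0.0603, adjusted p = 0.547 in edgeR, higher in 3 of 3 pairs). Jag2, the second Jagged ligand, had 1 tested peak, listed in an intron and covering the RefSeq start (chr12:112928388-112930354). It held 23.5, 24.7 and 22.6 CPM in the aged libraries and 24.4, 25.9 and 21.1 CPM in the young. The groups overlapped, and the ratio was -0.01 ± 0.10 (SE, adjusted p = 0.986 in edgeR).

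Rbpj, the DNA-binding partner of all Notch receptors, was named for 7 sparse peaks, of which 4 were tested, 1 with a positive and 3 with a negative ratio. The deepest, an intron peak listed 44.1 kb upstream of the annotated TSS (chr5:53594456-53594591), had 2.82, 3.23 and 2.45 CPM in the aged libraries and 3.37, 3.03 and 3.16 CPM in the young. Aged and young values overlapped, and the ratio was -0.16 ± 0.20 (SE, adjusted p = 0.875 in edgeR).

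Hes1, the repressor through which Notch blocks the secretory fate, carried the largest share of the signal: its 15 peaks held 54.2% of the mean CPM of the 59 member peaks. All were tested, and 12 lay upstream of the annotated TSS and 3 downstream. A positive ratio was seen in 12 (11 to 13 under the other scalings), against 48% of all tested peaks. The deepest (chr16:30055446-30056379), 10.4 kb upstream between genes, had 101, 91.6 and 95.5 CPM in the aged libraries and 92.5, 84.2 and 107 CPM in the young. The groups overlapped, at 96.0 ± 4.67 CPM in aged and 94.4 ± 11.3 CPM in young libraries (SD, n = 3 each), with an adjusted p of 0.963 in edgeR. Young replicate 3 was the highest of the 6 libraries and young replicate 2 the lowest.

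Around the Hes1 TSS, the peak within 1 kb (chr16:30066874-30067331, class TTS) had 18.4, 20.6 and 17.9 CPM in the aged libraries and 20.1, 18.2 and 16.1 CPM in the young. The ratio was 0.08 ± 0.11 with overlapping groups (SE, adjusted p = 0.884 in edgeR). The peak over the RefSeq start, 1.09 kb upstream of the annotated one (chr16:30065082-30065422), varied little, at 29.0, 29.3 and 29.3 CPM in the aged libraries and 30.7, 28.3 and 28.1 CPM in the young. Its ratio was 0.02 ± 0.09 (SE, adjusted p = 0.979 in edgeR).

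Further upstream of Hes1, the peak with its smallest p lay 26.9 kb away (chr16:30039249-30039602), with 5.82, 7.30 and 6.76 CPM in the aged libraries and 4.91, 5.98 and 5.38 CPM in the young. The ratio of 0.26 ± 0.16 did not pass, and aged replicate 1 lay below young replicate 2 (SE, adjusted p = 0.652 in edgeR, higher in 3 of 3 pairs). At 3 other upstream peaks of the 15 the aged libraries lay above the young without overlap, against 7.66% of all tested peaks. The one at 20.5 kb had 36.8, 37.8 and 38.9 CPM in the aged libraries and 34.7, 35.0 and 34.6 CPM in the young, with a ratio of 0.12 (adjusted p = 0.714 in edgeR). At 5.77 kb the ratio was 0.13 and at 2.09 kb it was 0.10, with adjusted p-values of 0.716 and 0.794 in edgeR. The lowest Hes1 ratio was -0.16, at 13.0 kb upstream (adjusted p = 0.69 in edgeR).

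**Figure D2:**
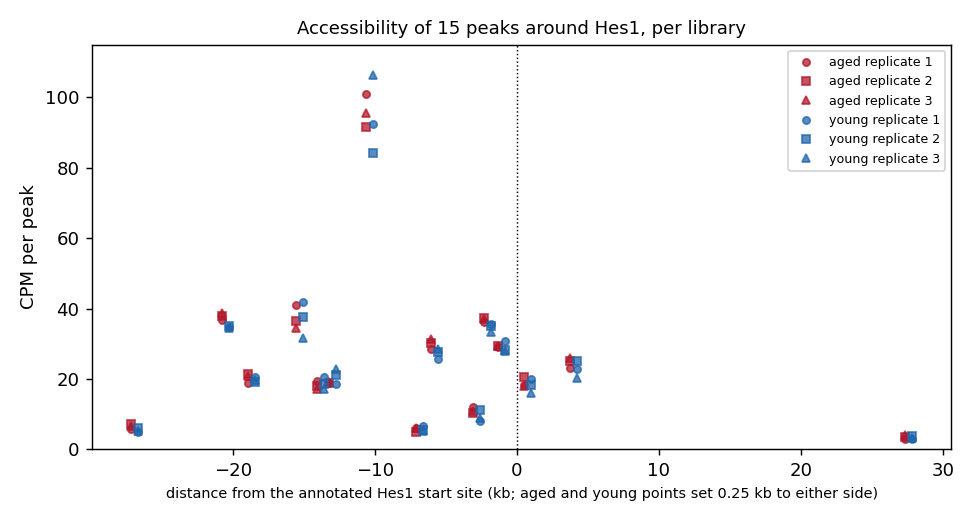
CPM of the 15 Hes1 peaks (y axis) by distance from the annotated TSS in kb (x axis), with 1 point per library, aged left of young. The deepest peak lies at -10.4 kb with 84.2 to 107 CPM, and the aged and young points overlap in 12 of the 15 peaks.

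Counts of all member peaks of a gene were also summed, so that each gene counts once. The sums of Notch1, Dll1, Dll4 and Rbpj leave out the peaks over their RefSeq starts, which are named for other genes. Of 29256 such gene sums 1.39% were called, and of the 9 members 0, with 0 unadjusted p under 0.05 in edgeR and 0 calls and 0 unadjusted p under 0.05 in DESeq2. Medians of the log2 ratio were -0.01 both for the 9 members and over all gene sums. Groups did not overlap in 3 of the 9 members, against 15.7% of all gene sums. With the replicate number as a block 3.21% of all gene sums were called, and again no member.

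Among the receptors, the Notch1 sum was 1.85, 1.06 and 1.45 CPM in the aged libraries and 1.39, 1.71 and 1.41 CPM in the young. Notch2 had 39.5, 43.2 and 42.0 CPM in the aged libraries and 33.7, 42.4 and 40.6 CPM in the young. Notch3 had 64.2, 60.8 and 64.9 CPM in the aged libraries and 66.8, 64.3 and 61.8 CPM in the young. In all 3 receptors the groups overlapped, with ratios of -0.08 ± 0.28, 0.07 ± 0.08 and -0.02 ± 0.06 (SE, adjusted p = 0.958, 0.841 and 0.963 in edgeR).

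Among the ligands, the Dll1 sum was 64.8, 60.8 and 62.3 CPM in the aged libraries and 64.0, 59.9 and 59.4 CPM in the young. Dll4 had 55.6, 65.1 and 58.1 CPM in the aged libraries and 68.2, 63.0 and 57.8 CPM in the young, and Jag2 had 26.5, 27.3 and 25.2 CPM in the aged libraries and 27.1, 28.8 and 23.5 CPM in the young. These 3 overlapped between the ages, with ratios of 0.04 ± 0.06, -0.07 ± 0.07 and -0.01 ± 0.09 (SE, adjusted p = 0.884, 0.822 and 0.988 in edgeR). Jag1 did not overlap, with 102, 103 and 99.6 CPM in the aged libraries and 99.1, 97.6 and 90.8 CPM in the young. Its ratio was 0.09 ± 0.06 with an interval of -0.04 to 0.21 (SE, adjusted p = 0.679 in edgeR, higher in 3 of 3 pairs).

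The Rbpj sum was 6.39, 7.59 and 6.19 CPM in the aged libraries and 7.70, 8.20 and 7.93 CPM in the young, so that each aged library lay below each young one. Its ratio of -0.25 ± 0.14, interval -0.55 to 0.05, did not pass (SE, adjusted p = 0.572 in edgeR, lower in 3 of 3 pairs). The Rbpj start peak, named for another gene, is not in this sum and averaged 81.2 CPM in aged and 81.9 CPM in young libraries. Hes1 had 437, 430.3 and 435 CPM in the aged libraries and 424, 416 and 425 CPM in the young. The aged libraries lay above the young by a narrow margin, and the ratio of 0.04 ± 0.06, interval -0.08 to 0.17, did not pass (SE, adjusted p = 0.868 in edgeR, higher in 3 of 3 pairs). The share of all peak counts that fell in the 59 member peaks was 0.0713 to 0.0729% in the aged libraries and 0.0681 to 0.0722% in the young.

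**Figure D3:**
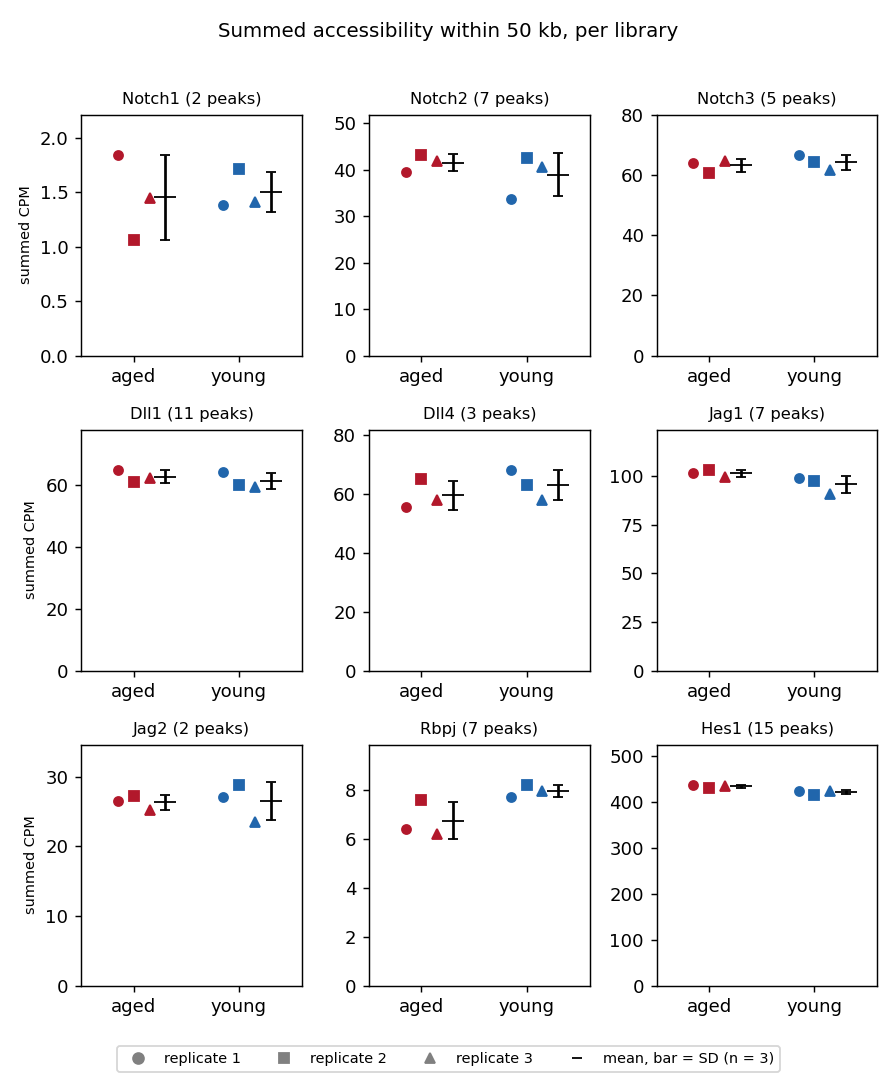
Summed CPM per gene (y axis) for the 9 members, with 1 point per library and the mean with its SD (n = 3) in black, aged left of young. The aged and young points overlap in 6 genes. They lie apart in Jag1 and Hes1, with aged higher, and in Rbpj, with aged lower, and none of these differences passed the test. Peaks named for other genes are not in the sums.

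The rule leaves out regions that belong to a member by the RefSeq gene models but are named for another gene. Peaks that cover a RefSeq start were therefore taken as well, a choice made after seeing the data. Of the 9 members 8 had such a peak, all but Notch3, and 4 of the 8 peaks lay outside the rule. The Notch1 start peak (chr2:26503054-26504391) is named for Mir6996 at 33.6 kb and had 27.5, 30.1 and 31.0 CPM in the aged libraries and 24.6, 28.4 and 26.9 CPM in the young, far more than either peak named for Notch1. With overlapping groups, the ratio was 0.14 ± 0.10 (SE, adjusted p = 0.713 in edgeR). The Rbpj start peak (chr5:53588960-53590767) is named for RP23-137N6.2 at 42.5 kb and had 80.4, 82.0 and 81.3 CPM in the aged libraries and 92.9, 78.5 and 74.3 CPM in the young. Young libraries were the highest and the lowest here, and the interval of the ratio was -0.16 to 0.16 (adjusted p = 0.998 in edgeR).

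At both Delta-like ligands the start peak carries the name of a neighbouring transcript. The Dll1 start peak (chr17:15374672-15377122), named for A930024N18Rik, had 41.1, 43.5 and 43.7 CPM in the aged libraries and 38.9, 39.98 and 36.5 CPM in the young. The aged libraries lay above the young, and the ratio of 0.15 ± 0.08 did not pass (SE, unadjusted p = 0.078, adjusted p = 0.592 in edgeR). The Dll4 start peak (chr2:119325070-119326274), named for Gm14207, had 29.1, 24.8 and 28.4 CPM in the aged libraries and 30.5, 27.2 and 23.7 CPM in the young, which overlapped (ratio 0.04 ± 0.10 SE, adjusted p = 0.955 in edgeR). Such a peak is shared by both transcripts, and its counts cannot be assigned to one of them. Of the 8 start peaks 6 had a positive ratio (5 to 7 under the other scalings), against 48% of all tested peaks. Between the ages 2 of the 8 did not overlap, against 14.7% of all tested peaks. In edgeR and in DESeq2 0 were called and 0 had an unadjusted p under 0.05, against 1.13% and 9.71% of all tested peaks in edgeR. Their ratios ran from -0.01 to 0.16, with intervals within -0.22 to 0.33.

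**Figure D4:**
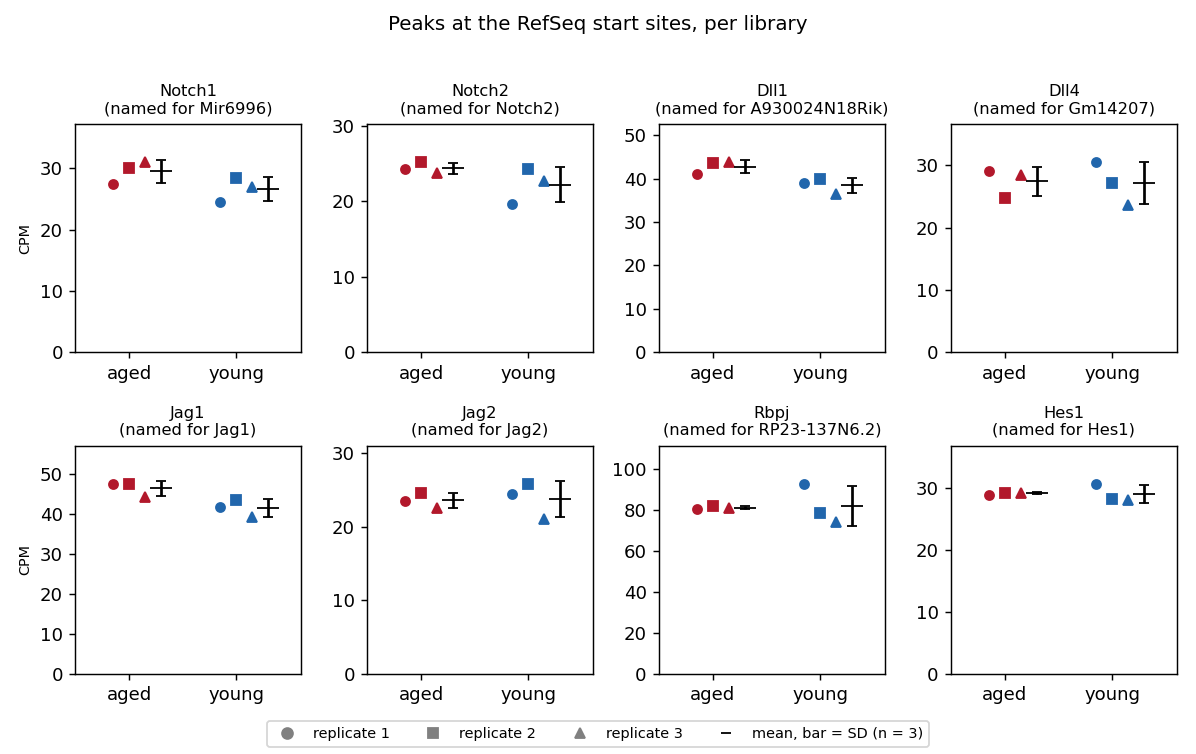
CPM (y axis, 1 scale per panel from 0) at the peaks over the RefSeq starts of 8 members, with 1 point per library and the mean with its SD (n = 3) in black, aged left of young. Only in the Dll1 and Jag1 panels do all aged points lie above all young ones, and neither difference passed the test.

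Per kb of peak, the start peaks took an order that rests in part on their widths. Hes1 was the highest, at 85.6 ± 0.509 CPM per kb in the aged and 85.2 ± 4.33 CPM per kb in the young libraries (SD, n = 3 each). Rbpj followed with 44.9 ± 0.455 CPM per kb in aged and 45.3 ± 5.40 CPM per kb in young libraries, and Jag1 with 34.3 ± 1.36 CPM per kb in aged and 30.6 ± 1.63 CPM per kb in young. Over the 6 libraries the ranges of these 3 did not meet. Dll4, Notch2 and Notch1 came next at 22.8, 22.2 and 22.1 CPM per kb in the aged and 22.5, 20.2 and 19.9 CPM per kb in the young libraries, with ranges that overlapped one another. Dll1 had 17.4 ± 0.590 CPM per kb in aged and 15.7 ± 0.726 CPM per kb in young libraries, and Jag2, the lowest, 12 ± 0.522 CPM per kb in aged and 12.1 ± 1.24 CPM per kb in young. The width of a peak depends on how it was called, so this is an order of peaks and not of expression. The Hes1 peak is 341 bp wide and the Rbpj peak 1808 bp. Without division by width Rbpj lay above Hes1. It averaged 81.2 CPM in aged and 81.9 CPM in young libraries, against 29.2 and 29.0 CPM at Hes1.

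Taking every peak that overlaps the RefSeq span of a member gave 64 peaks, 23 of them members by the rule, and 55 were tested. Of these 1 was called, against 1.13% of all tested peaks, 4 had an unadjusted p under 0.05, against 9.71%, and 8 did not overlap between the ages, against 14.7%. The called one was a peak of 106 bp in intron 2 of Rbpj (chr5:53566597-53566702), named for RP23-137N6.2 at 19.3 kb. Upstream of the Rbpj start peak (chr5:53588960-53590767), it lies inside the span, which begins at chr5:53555779. It held 15, 13 and 18 counts in the aged libraries and 0, 3 and 0 in the young, or 46 counts against 3 in all, so it passed the filter on low counts only through the aged libraries. Scaled to library size, the pooled counts gave a ratio of 11.6 on the linear scale, with a 95% counting interval of 3.73 to 58.3. The fitted log2 ratio was 3.42 with an interval of 2.01 to 4.82 (adjusted p = 0.0045 in edgeR, 0.000699 to 0.0564 over the alternatives that gave a value). The call was lost without young replicate 3, where the adjusted p was 0.0564, and 3 of the 17 alternatives (the 1 CPM filter, DESeq2 and thinned counts) gave no adjusted p. Without any filter on low counts the adjusted p was 0.00327 in edgeR. That fit used the same counts and the same consensus peaks, so it is no separate support for the call. Among the 17 peaks of the Notch1 span, 15 were named for other genes. The deepest, in an intron (chr2:26481918-26482737), averaged 67.6 CPM in the aged and 70.8 CPM in the young libraries, a ratio of -0.06 that did not pass (adjusted p = 0.873 in edgeR). The other 3 span peaks with an unadjusted p under 0.05 did not pass after adjustment. In the Notch1 span these were a peak at its 3′ end (chr2:26458420-26459046) with 14.6 CPM in aged and 11.6 CPM in young libraries on average, a ratio of 0.31, and an intron peak (chr2:26502355-26502583) with 9.52 CPM in aged and 7.25 CPM in young libraries, a ratio of 0.35 (adjusted p = 0.351 and 0.397 in edgeR). In both, every aged library lay above every young one. The third, in a Notch2 intron (chr3:98024436-98025158), had 3.29 CPM in aged and 4.35 CPM in young libraries, a ratio of -0.48 with overlapping groups (adjusted p = 0.345 in edgeR).

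At the 50 kb limit, the member peak just inside it, Jag1 at 48.4 kb upstream, had 10.7, 11 and 10.99 CPM in the aged libraries and 10.5, 10.9 and 11.4 CPM in the young. The nearest one outside, Dll1 at 56.4 kb, had 1.18, 0.601 and 0.660 CPM in the aged libraries and 0.421, 0.908 and 1.002 CPM in the young. In all, 7 peaks named for a member lay beyond the limit, 3 of Dll1 and 4 of Jag1, and none was called in edgeR. The deepest of them, Dll1 at 63.1 kb, averaged 11.6 CPM in the aged and 13.6 CPM in the young libraries, which overlapped. Dll1 at 59.8 kb had 4.46, 4.39 and 4.81 CPM in the aged libraries and 3.65, 3.33 and 3.64 CPM in the young. There the aged libraries lay above the young, with an unadjusted p below that of any member, and the ratio of 0.38 ± 0.18 did not pass (SE, unadjusted p = 0.0397, adjusted p = 0.477 in edgeR).

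For the rest of the pathway, a list of 48 genes was read at promoters. A promoter peak was named for 36, of which 34 were tested, 27 with a positive and 7 with a negative ratio (24 to 27 positive under the other scalings). In edgeR 0 were called, against 1.13% of all peaks, and 0 had an unadjusted p under 0.05. DESeq2 gave 0 calls and 0 unadjusted p under 0.05, with no adjusted p for 2. Ratios ran from -0.22 to 0.37 with a median of 0.08. All 6 tested HES, HEY and feedback targets had a positive ratio that did not pass, and the same was so of all 4 tested glycosylation enzymes and all 4 tested secretory fate genes. These signs held under each of the other scalings, which use the same counts. Positive ratios were also seen in 2 of 2 ligand-like genes, 3 of 4 in ligand endocytosis and 3 of 4 in receptor cleavage. They were fewer among nuclear cofactors (1 of 3) and in trafficking and turnover (4 of 7). Summed within 50 kb, Atoh1, Gfi1 and Spdef had ratios of -0.04, -0.01 and -0.05 and Neurog3 of 0.05, none called. Over all tested peaks 48% had a positive ratio. The share over all promoters was not taken, so the signs cannot be called particular to the pathway.

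Of these genes, Fbxw7, whose product marks the Notch intracellular domain for degradation, had the smallest p. Its promoter had 4.05, 4.48 and 3.65 CPM in the aged libraries and 3.23, 3.48 and 2.80 CPM in the young, which did not overlap (ratio 0.35 ± 0.19 SE, adjusted p = 0.576 in edgeR). Mib2, a ligand ubiquitin ligase, also lay higher in the aged libraries without overlap, with a ratio of 0.04 (adjusted p = 0.932 in edgeR). Pofut1 and Rfng, which add and extend sugars on Notch receptors, had ratios of 0.14 and 0.15 (adjusted p = 0.675 and 0.677 in edgeR). Heyl, a HES-related repressor, had a ratio of 0.24 (adjusted p = 0.754 in edgeR).

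Atoh1, the secretory factor that Hes1 represses, had 14.0, 15.2 and 14.4 CPM at its promoter in the aged libraries and 10.8, 15.6 and 13.1 CPM in the young. The groups overlapped, and the ratio was 0.10 ± 0.12, or 0.01 without young replicate 1 (SE, adjusted p = 0.869 in edgeR with all libraries). Of the remaining role leaders by p, the ligand-like Dll3 had a ratio of 0.16, the ligand ubiquitin ligase Neurl1b 0.09 and the coactivator Maml1 -0.06 (adjusted p = 0.856, 0.915 and 0.89 in edgeR). Summed within 50 kb, 0 of 47 pathway genes were called in edgeR, against 1.39% of all gene sums. DESeq2 also called 0 of them, against 374 of the 29256 gene sums fitted. An unadjusted p under 0.05 was seen in 2 in edgeR and 1 in DESeq2. The share of all gene sums with such a p was not taken, so these 2 cannot be set against it. The 2 were Hey2, a HES-related repressor, with 87.1 ± 2.74 CPM in aged and 76.8 ± 8.56 CPM in young libraries, and Furin, which cleaves Notch precursors, with 52.97 ± 1.99 CPM in aged and 47.2 ± 5.04 CPM in young (SD, n = 3 each). Their adjusted p-values were 0.346 and 0.415 in edgeR. At the promoter peaks Hey2 had a ratio of 0.08 and Furin of -0.06, neither called (adjusted p = 0.861 and 0.931 in edgeR).

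**Figure D5:**
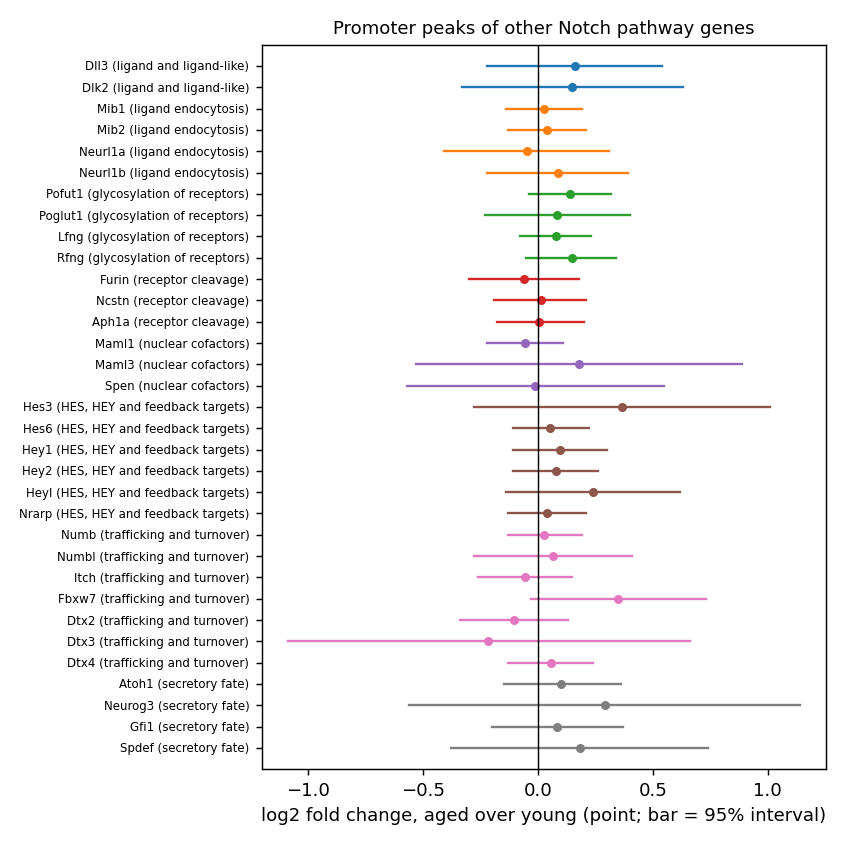
Log2 ratio of aged over young (x axis) at the promoters of tested pathway genes, grouped by role (y axis), with 95% intervals as lines. The points lie between -0.22 and 0.37, most of them above 0, and no promoter was called.

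As a description over the 6 libraries, which share their depth differences, the promoters most like the Hes1 peak within 1 kb of its TSS were those of Zfp598, Ppapdc2 and Pabpc4, out of 14318. Their Pearson correlations of log2 CPM with it were 0.995, 0.995 and 0.994. Those of the members with such a peak were 0.731 for Jag2, 0.534 for Dll4, 0.369 for Dll1 and -0.094 for Notch2.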

How the data were processed

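The authors deposited raw counts for each consensus peak and library, with a table that names the gene nearest to every peak (GRCm38). Tools in the submitters' processing notes include BWA 0.7.17-r1188, MACS2 2.2.7.1 and featureCounts 2.0.1. Per the file headers, the counts are those of featureCounts and were not normalised. Duplicate handling and any Tn5 offset were not given in the sources used here. Reads carry no molecular identifiers, so counting intervals cover counting error only.

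The age contrast was fitted with edgeR 4.0.16 in R 4.3.3 (quasi-likelihood F test, robust dispersion, TMM factors, filterByExpr with a minimum count of 10), over all peaks and again over counts summed per gene name within 50 kb. Calls have a Benjamini-Hochberg adjusted p under 0.05, two-sided. CPM were computed from the deposited counts with TMM-scaled totals, and intervals are 95% from the fit's t quantile. Alternatives included DESeq2 1.42.0 and cyclic loess in limma 3.58.1. The tests were tested on simulated data.

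Peaks were named by rule: per member, the promoter peak and the deepest peak, the 5 smallest p-values over all members, and per pathway role the smallest p with the 3 smallest p-values of the list. Other named peaks were chosen after their values were seen. The members and lists were chosen with earlier results of these data known. Same-numbered libraries share a passage and, in the titles, a culture code, so they were taken as pairs. In the descriptions the code is the same for every library, so there the passage alone marks the pairs. Their deviations from the group means correlated at 0.074, 0.126 and 0.144. Motifs were searched in RefSeq sequences of GRCm38.p6 on both strands. Distances are the annotation's, negative or upstream before the TSS, and starts are 1-based. Of the named peaks and markers, some are not reported here, and the plot of pathway promoters leaves them out.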

Additional observations from a re-analysis of the deposited data

How the results depend on the processing

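No member peak, member gene sum or pathway promoter was called under any of the 17 alternatives, and no member peak or gene sum under windows of 10 and 100 kb. The smallest adjusted p over the member peaks ran from 0.201 to 0.975 and over the gene sums from 0.398 to 0.891. The fits held 37 to 59 member peaks. Positive ratios were 31 of 51 with all libraries, 25 of 37 after thinning, 35 of 54 without young replicate 1 and 25 of 53 without young replicate 3, where their median was -0.01 against 0.04 with all libraries. At most 5 member peaks had an unadjusted p under 0.05, without young replicate 2. With the RefSeq spans, added after seeing the data, 1 peak was called, the Rbpj intron peak, with no adjusted p under the 1 CPM filter, in DESeq2 or after thinning. Over all peaks, 1491 were called, 911 with DESeq2, 3523 with the replicate block, 695 with counts thinned to 1 depth and 830 to 1902 with a library left out. Over all gene sums 408 were called, 939 with the replicate block, 253 thinned and 224 (without aged replicate 3) to 723 (without young replicate 2) with a library left out. The replicate block changed no call of a member. Among named values, 20 ratios changed sign, all within -0.12 to 0.09 and with adjusted p of 0.729 to 0.996 in edgeR. With cyclic loess the deepest Hes1 peak was at -0.02. After thinning it was at -0.02, the Jag2 peak at 0.08 and the Dll4 start peak at -0.03. With a library left out, ratios ran from -0.12 to 0.17 at the Dll1 peak 0.927 kb upstream, -0.03 to 0.07 at the deepest Dll1 peak, -0.10 to 0.07 at the Jag2 peak, -0.06 to 0.13 at the deepest Hes1 peak, -0.05 to 0.11 at the Dll4 start peak and -0.02 to 0.26 at the Neurl1b promoter. The sums of Notch1, Notch3 and Jag2 ran from -0.28 to 0.09, -0.04 to 0.01 and -0.10 to 0.08. Over all alternatives the promoter ratios ran from 0.01 to 0.25 at Atoh1, 0.10 to 0.52 at Heyl and 0.02 to 0.58 at Dll3. The cause of these changes was not tested. Young replicate 1 had the fewest counts, each worth 0.14 CPM.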
